A study of Mus musculus with 17 samples.

Results

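The genes of oxidative phosphorylation, the chain of mitochondrial complexes that oxidises nutrients and makes ATP, were followed through 17 bulk RNA sequencing libraries from mice. Members were taken by gene symbol: Nduf genes for complex I, Sdha, Sdhb, Sdhc and Sdhd for complex II, Uqcr genes and Cyc1 for complex III, Cox genes of the series from Cox4 to Cox8 for complex IV, Atp5 genes for complex V (the ATP synthase), and the mt-Nd, mt-Co, mt-Cytb and mt-Atp genes of the mitochondrial genome. Symbols ending in -ps, which mark pseudogenes, were left out. This gave 111 genes, of which 98 lie on nuclear chromosomes and 13 in mitochondrial DNA. The nuclear members are 7 core subunits, 29 accessory subunits and 8 assembly factors of complex I, 4 subunits of complex II, 9 of complex III, 12 of complex IV, 8 tissue isoforms of complex IV subunits, 17 subunits of complex V and 4 gene copies. The gene copies, Cox6c2, Ndufa11b, Ndufb4c and Ndufs6b, lack the ending -ps but are annotated as processed pseudogenes in GENCODE vM21. They are counted among the nuclear members. The intestinal files list 96 nuclear and 13 mitochondrial members among 33840 genes. The files of the libraries labelled liver list 95 members, all nuclear, and mitochondrial members were not analysed there. A filter on low counts left 92 nuclear and 13 mitochondrial members among 18207 intestinal genes tested, and 90 members among 16694 genes tested in the libraries labelled liver.

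All mice were wild type per the labels. The small intestine was taken from mice with hepatectomy, the surgical removal of liver tissue, and from mice with a sham operation. It was profiled as crypts, the epithelial pits that hold the intestinal stem cells, and as IEC, intestinal epithelial cells. This gave 4 groups of 2 libraries: hepatectomy crypts, sham crypts, hepatectomy IEC and sham IEC. A further 9 libraries carry the tissue label liver and the treatment DSS, dextran sulfate sodium, a polymer that injures the colon when given to mice, with 3 libraries each at day 0, day 10 and day 20. The labels used here give no age, strain or extent of the resection. Nor do they say whether the libraries of a group stem from different mice, so a p-value here reflects the spread among libraries, which may be technical.

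Complexes I and II pass electrons from NADH and succinate to ubiquinone, complex III passes them on to cytochrome c, and complex IV passes them to oxygen, while complex V uses the proton gradient built by complexes I, III and IV to make ATP. Complex II is encoded in the nucleus alone, and each of the other complexes joins nuclear subunits, imported from the cytosol, to subunits that mitochondrial ribosomes make from long transcripts of mitochondrial DNA. Absorptive enterocytes and hepatocytes are both known as cells rich in mitochondria, and crypt cells change their mitochondrial metabolism as they differentiate.

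Library totals were 26609686 to 43580020 expected counts in the intestine and 12742629 to 42669857 counts in the libraries labelled liver, the lowest being day 10 replicate 3, with 28429837 and 23947162 counts in the other day 10 libraries. Column headers put the hepatectomy libraries and the sham libraries into separate running-number series, so the effect of hepatectomy and a difference between these series cannot be told apart. No value within a series exists for it, while comparisons of crypts with IEC lie within a series. The summed level of 8 enterocyte markers was 9404 to 9575 CPM (counts scaled to a library total of 1e+06) in hepatectomy crypts and 4491 to 4817 CPM in sham crypts. Hepatectomy IEC held 54333 to 57894 CPM and sham IEC 24406 to 24958 CPM of these markers, with none of the 8 at 0. The summed level of 4 crypt stem cell markers was 1035 to 1044 CPM in hepatectomy crypts and 2232 to 2314 CPM in sham crypts. It was 611 to 634 CPM in hepatectomy IEC and 1489.7 to 1504 CPM in sham IEC. Olfm4 made up most of this sum, with 929.8 ± 8.49 TMM-scaled CPM in hepatectomy crypts and 1676 ± 34.1 in sham crypts (mean ± SD, n = 2 each). Ascl2 did not share its direction, with 12.9 ± 0.295 in hepatectomy crypts and 12.4 ± 1.71 in sham crypts, and Lgr5, at 12.8 ± 0.256 in sham crypts and 16.6 ± 0.805 in sham IEC, was not higher in crypts. Other cell types moved with the groups as well. Goblet cell markers (4 genes) summed to 1187 to 1235 CPM in hepatectomy crypts and 3716 to 3921 CPM in sham crypts, and to 3133 to 3135 CPM in hepatectomy IEC and 3352 to 3515 CPM in sham IEC. Paneth cell markers (5 genes) summed to 553 to 559 CPM in hepatectomy crypts and 1528 to 1557 CPM in sham crypts, and to 1771 to 1777 CPM in hepatectomy IEC and 3062 to 3239 CPM in sham IEC. Goblet and Paneth sums per all counts were thus below sham after hepatectomy in both compartments. On the TMM scale used below for the members, the goblet sum in IEC turned and was higher after hepatectomy than after sham surgery. Single markers differed in IEC. With TMM scaling Tff3 held 2319 ± 51.7 CPM in hepatectomy IEC and 1811 ± 68.6 CPM in sham IEC. Muc2 and Mmp7 were also higher in hepatectomy IEC, and the other goblet and Paneth markers were lower. T cell markers (4 genes) summed to 20.9 to 21.3 CPM in hepatectomy crypts and 63.6 to 67.7 CPM in sham crypts, and to 50.9 to 51.1 CPM in hepatectomy IEC and 70.3 to 71.9 CPM in sham IEC. B and plasma cell markers (4 genes) summed to 12.97 to 14.6 CPM in hepatectomy crypts and 71.3 to 81.5 CPM in sham crypts, and to 72.2 to 75.0 CPM in hepatectomy IEC and 316 to 327 CPM in sham IEC. None of these genes was at 0 in a group, and the part of these cell types in the changes of the members was not tested. In bulk samples, fewer cells of a type and less RNA per cell cannot be told apart. The libraries labelled liver at day 0 and day 10 went against their tissue label. The 8 hepatocyte markers summed to 660.2 to 1007 CPM at day 0, 928 to 3862 CPM at day 10 and 75224 to 78022 CPM at day 20. The 5 gut epithelium markers summed to 4351 to 4777 CPM, 2868 to 4901 CPM and 29.2 to 37.0 CPM on the same days. Day 20 over day 0, and day 20 over day 10, are therefore also comparisons of libraries with and without hepatocyte RNA as the main content. The 5 Paneth cell markers summed to 35981.5 to 42296.5 CPM at day 0, 9048 to 83946 CPM at day 10 and 214 to 284 CPM at day 20. The day 10 libraries thus differed widely from each other in this sum, and its part in day 10 over day 0 was not tested.

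Set against all counts of a library, the 13 mitochondrial members were about as abundant in hepatectomy crypts as in hepatectomy IEC, and sham crypts were the low group. Their summed level was 51818 and 45874 CPM in hepatectomy crypts, against 24656 and 26229.8 CPM in sham crypts. In IEC it was 51801 and 53609.7 CPM after hepatectomy, against 60983 and 60863 CPM after sham surgery. On this scale the groups did not overlap in either compartment, with hepatectomy libraries above sham libraries in crypts and below them in IEC. The nuclear members summed to 32752 and 31814 CPM in hepatectomy crypts and 37715 and 35404 CPM in sham crypts. In IEC they summed to 28932 and 28895 CPM in hepatectomy IEC and 31512 and 30907 CPM in sham IEC. On this scale the nuclear sum was thus lower in every hepatectomy library than in the sham libraries of its compartment. On the scale of TMM, a trimmed-mean normalization factor, this order turned: the nuclear members summed to 32764 and 32259 CPM in hepatectomy crypts and 29479.7 and 29371 CPM in sham crypts, and to 34282 and 34906 CPM in hepatectomy IEC and 32387 and 31941 CPM in sham IEC. The mitochondrial sum on the TMM scale was 51836 and 46515 CPM in hepatectomy crypts and 19272 and 21759.9 CPM in sham crypts. In IEC it overlapped between the groups, with 61380.3 and 64762 CPM in hepatectomy IEC and 62676 and 62899 CPM in sham IEC.

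The ratio of mitochondrial to nuclear members, which no scaling of the libraries can alter, was 1.58 and 1.44 in hepatectomy crypts, against 0.654 and 0.741 in sham crypts. In IEC it was 1.79 and 1.86 after hepatectomy, against 1.94 and 1.97 after sham surgery. Sham crypts were the only one of the 4 groups below 1, and both hepatectomy IEC libraries lay slightly below both sham IEC libraries. Ribosomal RNA of the mitochondrion (mt-Rnr1 and mt-Rnr2), which is not a member, moved alongside in crypts: it took 3.08 and 2.71% of all counts in hepatectomy crypts and 1.53 and 1.79% in sham crypts. In IEC its share was 2.67 and 3.40% after hepatectomy and 3.96 and 3.96% after sham surgery. These sums carry no test, because the members were chosen with earlier results of these data known.

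**Figure D1:**
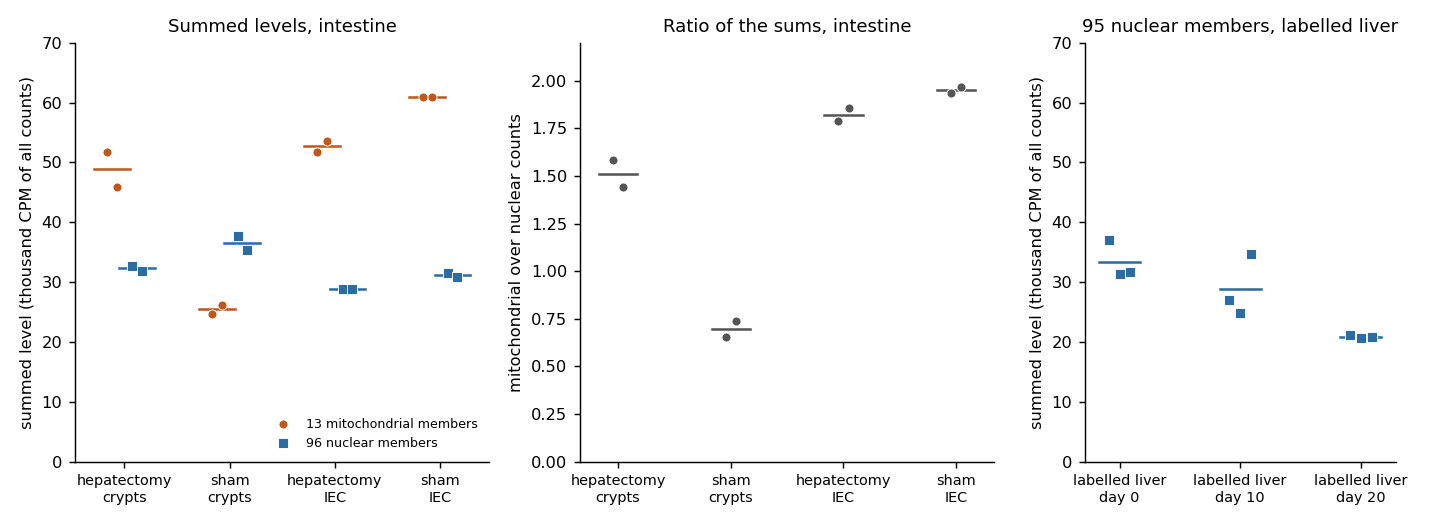
Summed level of the mitochondrial and nuclear members (in units of 1000 CPM of all counts) and their ratio in each intestinal library, and the summed level of 95 nuclear members in each library labelled liver; points are libraries and lines are group means. The ratio is lowest in the sham crypts, at 0.654 and 0.741, and the nuclear sum per all counts is lowest in the day 20 libraries, at 21107, 20655 and 20903 CPM; with TMM scaling day 20 lies above day 10, and the hepatectomy libraries above the sham libraries of their compartment in the nuclear sum.

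Other transcripts also differed between the groups. Gm10800, a predicted gene, took 3.99 and 3.44% of counts in hepatectomy crypts and 0.102 and 0.0717% in sham crypts. Its share was 5.12 and 4.96% in hepatectomy IEC and 1.83 and 2.39% in sham IEC. Olfactory receptor genes summed to 158 and 164 CPM in hepatectomy crypts and 69.1 and 62.5 CPM in sham crypts. In IEC they summed to 131 and 139 CPM in hepatectomy IEC and 70.7 and 82.3 CPM in sham IEC. CT010467, a locus named after its clone, took 12.9 and 16.3% of counts in hepatectomy crypts and 7.40 and 12.5% in sham crypts. Its share was 4.98 and 5.88% in hepatectomy IEC and 11.6 and 11.7% in sham IEC. The part of these transcripts in the results for the members was not tested, beyond a fit without mitochondrial genes and Gm10800 that called 51 nuclear members higher and 0 lower in crypts, and 33 higher and 9 lower in IEC.

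Mouse nuclear chromosomes carry insertions of mitochondrial DNA, and some are annotated as genes of their own, so reads of a mitochondrial member can be shared with a nuclear copy. An insertion on chromosome 1 holds 7 such annotated copies. A stretch of mt-Nd3 and its copy Gm28438 is shown because these differ by 1 base, and a stretch of mt-Co3 and its copy Gm28437 because these are alike. Capitals mark the base that differs, T3C when bases are counted from the gene's start. The sequences are from GENCODE vM21 on GRCm38. The stretch of mt-Nd3 is chrM:9459-9491, plus strand, and that of Gm28438 is chr1:24613087-24613119, minus strand. The stretch of mt-Co3 is chrM:8607-8666, plus strand, and that of Gm28437 is chr1:24613912-24613971, minus strand.
mt-Nd3: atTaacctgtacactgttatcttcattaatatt
Gm28438: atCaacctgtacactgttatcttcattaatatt
mt-Co3: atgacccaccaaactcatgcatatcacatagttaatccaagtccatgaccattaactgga
Gm28437: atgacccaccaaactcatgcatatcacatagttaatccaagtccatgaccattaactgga
Gm28438 received 2 to 13 counts per library. Gm28437, identical to mt-Co3 over 783 bases, received 99.4 to 99.8% of the count of mt-Co3 in every library. Gm28661 likewise held 99.3 to 99.6% of the count of mt-Co2 over 681 identical bases, Gm10925 held 68.6 to 98.8% of that of mt-Atp6, and Gm10222 held 55.4 to 67.4% of that of mt-Nd4l. Gm29216, which matches mt-Co1 over 483 bases with 1 mismatch, held 5.77 to 17.6% of the count of mt-Co1. Levels of mt-Co3, mt-Co2, mt-Atp6, mt-Nd4l and mt-Co1 are therefore uncertain. With copies added to the members the ratio to the nuclear sum was 1.97 and 1.79 in hepatectomy crypts and 0.813 and 0.914 in sham crypts. In IEC it was 2.33 and 2.43 after hepatectomy and 2.47 and 2.50 after sham surgery, so the groups kept their order.

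In crypts, each of the 13 mitochondrial members was higher after hepatectomy and passed the test (edgeR quasi-likelihood test, Benjamini-Hochberg adjusted p under 0.05 over all genes tested), where 19.2% of all genes tested were called higher and 18.3% lower. Levels and log2 fold changes given from here on are on the TMM scale, with the SE of the fold change. For mt-Co1, a catalytic subunit of complex IV, the libraries held 13495 and 12327 CPM in hepatectomy crypts, against 5134 and 5784 CPM in sham crypts, a log2 fold change of 1.24 ± 0.06 (edgeR adjusted p = 1.32e-08). For mt-Cytb, the mitochondrial subunit of complex III, the values were 9499 and 8655 CPM in hepatectomy crypts, against 3509 and 3931 CPM in sham crypts (log2 fold change 1.29 ± 0.05, edgeR adjusted p = 6.42e-09). Both hepatectomy libraries lay well above both sham libraries for either gene. The 7 complex I subunits spanned the range of effects: mt-Nd3 had the smallest change of the 13, with 401 and 332 CPM in hepatectomy crypts, against 176 and 218 CPM in sham crypts (log2 fold change 0.90 ± 0.11, edgeR adjusted p = 6.72e-05). The largest was that of mt-Nd6, the only member transcribed from the light strand, with 316 and 268 CPM in hepatectomy crypts, against 79.1 and 94.8 CPM in sham crypts (log2 fold change 1.75 ± 0.09, edgeR adjusted p = 3.74e-08). Groups overlapped for neither gene. For mt-Nd2, mt-Nd4, mt-Nd4l, mt-Nd5 and mt-Nd1 the log2 fold changes were 1.25 ± 0.09, 1.53 ± 0.07, 1.36 ± 0.08, 1.65 ± 0.09 and 1.24 ± 0.06. Those of the complex IV subunits mt-Co2 and mt-Co3 were 1.24 ± 0.08 and 1.07 ± 0.05, and those of the complex V subunits mt-Atp6 and mt-Atp8 were 1.18 ± 0.07 and 1.18 ± 0.07. With library totals in place of TMM factors the median log2 fold change of the 13 was 0.93, against 1.24 with TMM, and no member turned.

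In IEC the mitochondrial members moved little with TMM factors. Of the 13, 1 was called higher and 4 lower, where 19.5% of all genes tested were called higher and 18.3% lower. With library totals 0 were called higher and 9 lower, with a median log2 fold change of -0.33 against -0.11 with TMM. The falls called with TMM were those of the complex I subunits mt-Nd2, mt-Nd4l and mt-Nd4 and of mt-Cytb. For mt-Nd2 the libraries held 680.3 and 711 CPM in hepatectomy IEC, against 973 and 913 CPM in sham IEC (log2 fold change -0.44 ± 0.09, edgeR adjusted p = 0.00143). The others fell by smaller amounts, with log2 fold changes of -0.36 ± 0.08 for mt-Nd4l, -0.20 ± 0.06 for mt-Nd4 and -0.18 ± 0.05 for mt-Cytb. For mt-Atp6 the values were 6343 and 6598 CPM in hepatectomy IEC, against 5648 and 5527 CPM in sham IEC (log2 fold change 0.21 ± 0.07, edgeR adjusted p = 0.0271). It was called higher with TMM factors and by DESeq2. With library totals its log2 fold change was -0.0037, and with the nuclear copies added mt-Atp6 missed the call (edgeR adjusted p = 0.0554) while mt-Co1 passed (edgeR adjusted p = 0.0285). Without sham IEC replicate 2 there were 2 called falls in place of 4. Without any 1 of the 4 IEC libraries mt-Atp6 lost its call (edgeR adjusted p = 0.0565 to 0.149). mt-Nd4 lost it without sham IEC replicate 1 or 2 or hepatectomy IEC replicate 1 (edgeR adjusted p = 0.0701 to 0.142), and mt-Cytb without sham IEC replicate 2 or hepatectomy IEC replicate 2 (edgeR adjusted p = 0.06 to 0.073). mt-Co1, with 18709 and 19947 CPM in hepatectomy IEC, against 17514 and 17763 CPM in sham IEC, did not pass (log2 fold change 0.13 ± 0.06, edgeR adjusted p = 0.0889).

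The effect of hepatectomy differed between crypts and IEC for each of the 13 mitochondrial members by the interaction test, where 9.15% of all genes tested were called higher and 10.1% lower. The difference of log2 fold changes was smallest for mt-Co3, at 0.94 ± 0.07 (edgeR adjusted p = 5.70e-06), and largest for mt-Nd5, at 1.89 ± 0.13 (edgeR adjusted p = 1.43e-06). mt-Cytb, mt-Nd2, mt-Nd4 and mt-Nd4l were the members called with opposite signs in the 2 compartments, higher in hepatectomy crypts and lower in hepatectomy IEC, with the IEC calls of mt-Cytb and mt-Nd4 lost without the libraries named above.

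**Figure D2:**
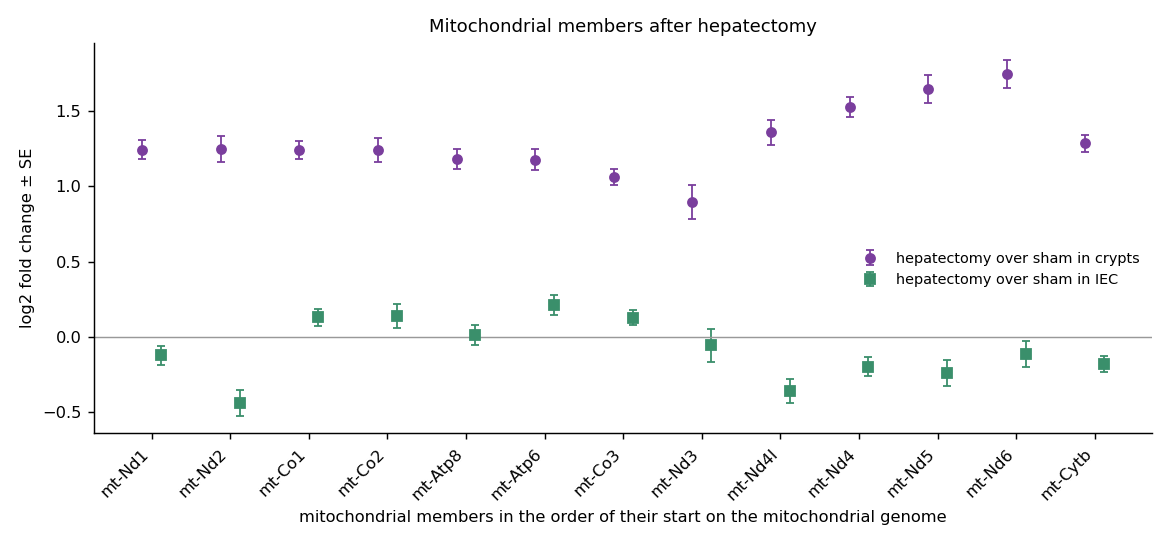
Log2 fold change with its SE of the 13 mitochondrial members in genome order, hepatectomy over sham, in crypts and in IEC. In crypts the values run from 0.90 for mt-Nd3 to 1.75 for mt-Nd6, and in IEC from -0.44 for mt-Nd2 to 0.21 for mt-Atp6. With library totals in place of TMM factors the sign of mt-Atp6 turns in IEC, and 9 of the 13 are called lower there.

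Crypts held less mitochondrial mRNA than IEC after sham surgery, and each of the 13 members was called lower, where 19.3% of all genes tested were called higher and 19.3% lower. The log2 fold changes ran from -1.83 ± 0.09 for mt-Nd6 to -1.42 ± 0.11 for mt-Nd3, and for mt-Co1 the libraries held 5134 and 5784 CPM in sham crypts, against 17514 and 17763 CPM in sham IEC (log2 fold change -1.69 ± 0.06, edgeR adjusted p = 2.72e-10). Crypt libraries lay below IEC libraries, and no member turned with library totals. After hepatectomy the picture was mixed, with 2 members called higher and 6 lower in crypts, where 26.3% of all genes tested were called higher and 25.6% lower. The complex IV subunits mt-Co3, mt-Co1 and mt-Co2 were called lower in crypts, with log2 fold changes of -0.82 ± 0.05, -0.58 ± 0.06 and -0.53 ± 0.08, as were mt-Atp6, mt-Atp8 and mt-Nd3. For mt-Nd5 the libraries held 2846 and 2297 CPM in hepatectomy crypts, against 1964 and 2316 CPM in hepatectomy IEC (log2 fold change 0.27 ± 0.09, edgeR adjusted p = 0.0257). mt-Nd4l was the other member called higher in crypts (log2 fold change 0.21 ± 0.08, edgeR adjusted p = 0.0429). The groups overlapped for mt-Nd5, and its call was lost without hepatectomy crypts replicate 1 or hepatectomy IEC replicate 1 (edgeR adjusted p = 0.209 to 0.242). mt-Nd4l lost its call without any 1 of the 4 hepatectomy libraries but hepatectomy IEC replicate 2, and without either sham IEC library (edgeR adjusted p = 0.0513 to 0.362). With library totals 5 of the 13 members were called higher and 4 lower in hepatectomy crypts, and mt-Atp8 and mt-Nd3 were not called. The median log2 fold change was then 0.15, against -0.10 with TMM.

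Per kilobase of gene length and without the nuclear copies, the order of the mitochondrial members was much alike in the 4 groups. On these counts mt-Atp8 was highest, mt-Co1 next and mt-Nd6 lowest in each. In hepatectomy crypts mt-Atp8 had 11096 ± 1009 TMM-scaled CPM per kilobase, mt-Co1 8357 ± 534, mt-Nd2 642 ± 76.1 and mt-Nd6 564 ± 65.3 (mean ± SD, n = 2). In sham crypts the same members had 4881 ± 482, 3533 ± 298, 269.8 ± 34.7 and 168 ± 21.4 TMM-scaled CPM per kilobase. The values of mt-Nd2 and mt-Nd6, neighbours in the order, overlapped within their SDs in hepatectomy crypts and not in sham crypts. mt-Cytb was 3rd of 13 in hepatectomy crypts, with 7934 ± 522, and 5th of 13 in hepatectomy IEC, with 8283 ± 110.1. mt-Atp8 and mt-Atp6 overlap on the same transcript, so reads in the overlap cannot be assigned to either. The order also depends on the nuclear copies. Gm28437 held 99.4 to 99.8% of the count of mt-Co3, and Gm10925 68.6 to 98.8% of that of mt-Atp6. The upper places, including those of mt-Atp8, mt-Co1 and mt-Cytb, are therefore uncertain.

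Called changes of nuclear members in crypts were smaller than those of the mitochondrial members, at most 0.85 on the log2 scale. In crypts 48 of the 92 tested were called higher after hepatectomy and 1 lower, against 19.2% and 18.3% of all genes tested, with a median log2 fold change of 0.15 against 0.01 over all genes. These directions rest on TMM scaling: with library totals the median of all genes moved to -0.31, 1 nuclear member was called higher and 57 lower, while the distance of the nuclear median from the median of all genes stayed at 0.14. In IEC 35 were called higher and 6 lower after hepatectomy, against 19.5% and 18.3% of all genes, with medians of 0.09 and 0.02. Without sham crypts replicate 1, which shares the fit, 12 were called lower in IEC, and leaving out any other library gave 4 to 8. With library totals the median of all genes in IEC was -0.19 and the counts were 4 higher and 41 lower, the distance being 0.06 in both cases. Of the members called higher, 28 were so in both compartments, which is 58.3% of the crypt calls and 80.0% of the IEC calls. Over all genes tested 1771 were called higher in both, which is 50.7% of the crypt calls and 49.99% of the IEC calls. Directions of single nuclear members below are those with TMM, and a member whose sign turned with library totals is named with that value.

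Among the complex I subunits, 1 of 7 core and 12 of 29 accessory members were called higher in hepatectomy crypts, where library totals called 6 core and 21 accessory members lower. Ndufab1, an acyl carrier protein, was the accessory member called lower (log2 fold change -0.14 ± 0.04, edgeR adjusted p = 0.0235), a call that was lost without any 1 of the 4 crypt libraries (edgeR adjusted p = 0.0583 to 0.14). Ndufa3 had the largest rise of the accessory members in crypts, with 191 and 189 CPM in hepatectomy crypts, against 129 and 145 CPM in sham crypts (log2 fold change 0.47 ± 0.06, edgeR adjusted p = 5.05e-05), and Ndufb7 followed with 0.36 ± 0.04. In IEC 12 accessory members were again called higher and 1 lower, against 1 higher and 11 lower with library totals. Ndufa7 held 239 and 238 CPM in hepatectomy IEC, against 182 and 177 CPM in sham IEC (log2 fold change 0.41 ± 0.05, edgeR adjusted p = 1.94e-05). Ndufa6 held 365 and 378 CPM in hepatectomy IEC, against 289 and 287 CPM in sham IEC (log2 fold change 0.37 ± 0.05, edgeR adjusted p = 6.04e-05). Hepatectomy libraries lay above sham libraries for both. Ndufc2 was the accessory member called lower in IEC (log2 fold change -0.21 ± 0.05, edgeR adjusted p = 0.00303). Of the core subunits, which carry the flavin and the iron-sulfur clusters, Ndufv1 was called higher in both compartments, with 0.19 ± 0.04 in crypts (-0.13 with library totals) and 0.24 ± 0.04 in IEC, and Ndufs8 was called lower in IEC (log2 fold change -0.15 ± 0.04, edgeR adjusted p = 0.0211). The call of Ndufs8 was lost without sham IEC replicate 1 or 2 or hepatectomy IEC replicate 2 (edgeR adjusted p = 0.0715 to 0.0873).

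The assembly factors of complex I help to build the complex and are not part of it. In crypts 0 of the 8 were called by edgeR or DESeq2, and 1 was higher and 3 lower at an unadjusted p under 0.05. In IEC 3 were called lower by edgeR and 2 by DESeq2. With library totals 7 were called lower in crypts and 8 in IEC. Ndufaf5 held 7.59 and 6.82 CPM in hepatectomy IEC, against 10.4 and 10.6 CPM in sham IEC (log2 fold change -0.54 ± 0.11, edgeR adjusted p = 0.00175), and Ndufaf6 had -0.40 ± 0.09. Hepatectomy libraries lay below sham libraries for both.

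Of complex II, 3 of 4 subunits were called higher in hepatectomy crypts and 2 in hepatectomy IEC, where library totals called 3 and 1 lower. Sdhd, a membrane anchor, held 684 and 658 CPM in hepatectomy IEC, against 549 and 531 CPM in sham IEC (log2 fold change 0.31 ± 0.04, edgeR adjusted p = 9.88e-05). Sdhc, the other anchor, had 0.21 ± 0.04 in crypts and turned to -0.11 with library totals. Of complex III, 8 of 9 subunits were called higher in crypts and 5 in IEC, where library totals called 5 and 2 lower. Uqcrq held 669 and 641 CPM in hepatectomy crypts, against 544 and 539 CPM in sham crypts (log2 fold change 0.28 ± 0.04, edgeR adjusted p = 0.000253), with -0.05 under library totals. Uqcrh, the hinge protein, held 464 and 493 CPM in hepatectomy IEC, against 381 and 387 CPM in sham IEC (log2 fold change 0.32 ± 0.05, edgeR adjusted p = 0.000413).

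Of the 12 complex IV subunits made in most tissues, 8 were called higher in hepatectomy crypts and 4 in hepatectomy IEC, where library totals called 5 lower in each. Cox7a2l, which joins complexes III and IV into supercomplexes, held 233 and 224 CPM in hepatectomy crypts, against 174 and 182 CPM in sham crypts (log2 fold change 0.36 ± 0.05, edgeR adjusted p = 8.93e-05), and had 0.32 ± 0.05 in IEC. Cox7b had 0.33 ± 0.05 in crypts. Of the 17 complex V subunits, 12 were called higher in crypts, and 6 higher and 1 lower in IEC, where library totals called 10 and 9 lower. Atp5mpl, a small membrane subunit, held 149 and 148 CPM in hepatectomy crypts, against 105 and 126 CPM in sham crypts (log2 fold change 0.36 ± 0.07, edgeR adjusted p = 0.00242). Atp5md, another small membrane subunit, held 187 and 192 CPM in hepatectomy IEC, against 145 and 152 CPM in sham IEC (log2 fold change 0.35 ± 0.06, edgeR adjusted p = 0.000453). Hepatectomy libraries lay above sham libraries in each of these. The 4 gene copies, whose reads are hard to tell from those of their parent genes, had 3 called higher in each compartment, with 0.46 ± 0.09 in crypts and 0.47 ± 0.09 in IEC for Cox6c2; library totals turned the sign of Ndufb4c in crypts (0.22 ± 0.07 with TMM, -0.10 with totals).

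The c subunit of complex V, the ring that turns as protons pass, is made from Atp5g1, Atp5g2 and Atp5g3, which encode the same mature protein with different import signals. Atp5g3 was called higher in hepatectomy crypts, with 461 and 444 CPM in hepatectomy crypts, against 342 and 363 CPM in sham crypts (log2 fold change 0.36 ± 0.06, edgeR adjusted p = 0.00053). Atp5g2 was the complex V member called lower in hepatectomy IEC, with 20.1 and 23.9 CPM in hepatectomy IEC, against 31 and 31.4 CPM in sham IEC (log2 fold change -0.51 ± 0.10, edgeR adjusted p = 0.00138). The effect on Atp5g1 was higher in crypts than in IEC by 0.29 ± 0.06 on the log2 scale (edgeR adjusted p = 0.00734). Within hepatectomy libraries Atp5g2 was higher in crypts than in IEC (log2 fold change 0.60 ± 0.10, edgeR adjusted p = 0.000199), and so was Atp5g1 (log2 fold change 0.32 ± 0.05, edgeR adjusted p = 6.50e-05). The promoters of Atp5g2 (chr15:102670998-102671297, minus strand) and Atp5g3 (chr2:73911277-73911576, minus strand) are shown because these genes share a product and were called in opposite directions in different compartments. They are RefSeq sequences on GRCm38.p6, from 250 bases before to 50 bases after the start, and capitals mark matches to the motifs named after them.
Atp5g2: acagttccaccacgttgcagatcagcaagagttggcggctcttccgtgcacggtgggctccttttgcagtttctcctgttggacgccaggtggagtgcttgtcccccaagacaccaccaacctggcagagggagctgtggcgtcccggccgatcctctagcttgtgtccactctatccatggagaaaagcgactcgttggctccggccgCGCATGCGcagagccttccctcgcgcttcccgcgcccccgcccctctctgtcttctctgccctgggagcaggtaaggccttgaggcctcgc
Atp5g3: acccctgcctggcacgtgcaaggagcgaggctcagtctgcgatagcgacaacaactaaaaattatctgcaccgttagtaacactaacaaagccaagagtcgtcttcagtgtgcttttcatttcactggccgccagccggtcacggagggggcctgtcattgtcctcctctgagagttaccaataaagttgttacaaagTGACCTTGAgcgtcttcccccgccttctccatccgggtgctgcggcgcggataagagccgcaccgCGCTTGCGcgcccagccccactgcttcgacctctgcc
Both hold a match to the NRF1 core motif CGCNTGCG, at base 210 in Atp5g2 and base 264 in Atp5g3, and Atp5g3 also holds the ERR motif TCAAGGTCA at base 199. Read on both strands of the first listed promoter, the NRF1 motif occurred in 27 of the 76 nuclear members with a promoter sequence (35.5%), against 8.42% of promoters of all 27025 genes listed. The ETS motif CCGGAAG occurred in 23.7% of the members and 9.12% of all genes, the YY1 motif AAGATGGCG in 9.21% and 1.49%, and the ERR motif in 2.63% and 0.407%. A match describes letters in this window and not binding.

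**Figure D3:**
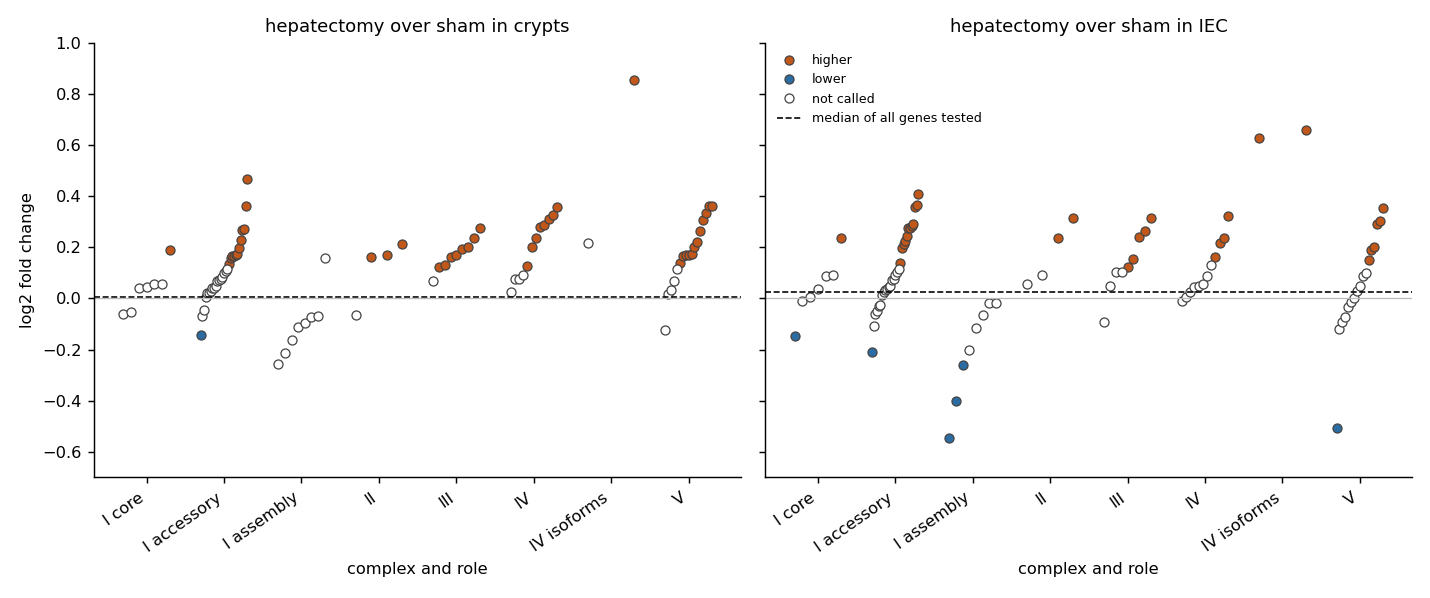
Log2 fold change of each nuclear member, hepatectomy over sham, by role, with crypts on the left and IEC on the right; orange points were called higher, blue points lower and white points not called, and the dashed line is the median of all genes tested. Complex III has 8 of 9 points called higher in crypts and the assembly factors have 0 of 8. With library totals in place of TMM factors the medians of the subunits of each complex turn to values below 0. The tissue isoforms of complex IV then keep medians above 0, at 0.22 in crypts and 0.43 in IEC.

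The effect of hepatectomy differed between crypts and IEC for 7 nuclear members upwards and 4 downwards by the interaction test, against 9.15% and 10.1% of all genes tested. Upwards means a more positive change in crypts. Ndufc2 (0.29 ± 0.06, edgeR adjusted p = 0.00688), Ndufa4, a subunit of complex IV (0.27 ± 0.09, edgeR adjusted p = 0.0488), and Cox6c (0.24 ± 0.07, edgeR adjusted p = 0.0381) were among the 7. Ndufa6 (-0.26 ± 0.07, edgeR adjusted p = 0.0186) and Ndufa7 (-0.24 ± 0.07, edgeR adjusted p = 0.0213) were among the 4. No nuclear member was called with opposite signs in the 2 compartments. With library totals none of the 7 upward calls was made, and the counts were 0 upwards and 6 downwards. With TMM, Ndufc2 kept its call when any 1 library was left out, while Ndufa4 and Cox6c lost theirs without 5 of the 8 libraries and Ndufa6 and Ndufa7 without 6. Between 0 and 2 of the 4 downward calls were made when any 1 library was left out, and 3 upward and 3 downward calls were made with the replicate number in the model.

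Crypts differed from IEC in the nuclear members in both surgical groups. After sham surgery 3 nuclear members were called higher and 38 lower in crypts, against 19.3% and 19.3% of all genes tested, with a median of -0.10 against 0.02 over all genes. With library totals the median of all genes was 0.37 and the counts were 72 higher and 4 lower, the distance of the nuclear median staying near -0.11. After hepatectomy 12 were called higher and 34 lower, against 26.3% and 25.6% of all genes, with medians of -0.04 and 0.01; with library totals these counts were 53 and 4. With TMM, 12 of 29 accessory complex I subunits, 3 of 4 complex II, 5 of 9 complex III, 6 of 12 complex IV and 8 of 17 complex V subunits were called lower in sham crypts, where library totals called 22, 3, 7, 9 and 14 of them higher. Ndufa1, an accessory complex I subunit, held 93.2 and 93.7 CPM in sham crypts, against 144 and 144 CPM in sham IEC (log2 fold change -0.62 ± 0.05, edgeR adjusted p = 3.52e-07). After hepatectomy it held 108 and 106 CPM in hepatectomy crypts, against 183 and 186 CPM in hepatectomy IEC (log2 fold change -0.78 ± 0.04, edgeR adjusted p = 2.05e-08). Crypt libraries lay below IEC libraries in both. Ndufa6 was lower in crypts after hepatectomy, with 256 and 239 CPM in hepatectomy crypts, against 365 and 378 CPM in hepatectomy IEC (log2 fold change -0.58 ± 0.05, edgeR adjusted p = 5.11e-07). Of the 8 assembly factors, 3 were called higher in sham crypts and 4 in hepatectomy crypts, and all 8 in both with library totals. For Ndufaf6 the libraries held 16.3 and 16.6 CPM in hepatectomy crypts, against 10.8 and 10.4 CPM in hepatectomy IEC (log2 fold change 0.63 ± 0.08, edgeR adjusted p = 4.05e-05). Without sham IEC replicate 1 the 38 called falls after sham surgery numbered 23.

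Complex IV has tissue isoforms that stand in for the common subunits in muscle, lung, testis or under hypoxia, and 6 of the 8 are listed in the intestinal files, of which 2 passed the count filter. Cox7a1, named for heart and skeletal muscle, rose in both compartments after hepatectomy. It held 63.1 and 64.1 CPM in hepatectomy crypts, against 33.0 and 37.3 CPM in sham crypts (log2 fold change 0.85 ± 0.06, edgeR adjusted p = 9.82e-07). In IEC it held 157 and 147 CPM in hepatectomy IEC, against 97.8 and 94.9 CPM in sham IEC (log2 fold change 0.66 ± 0.06, edgeR adjusted p = 3.92e-06). The groups did not overlap, and IEC libraries lay above crypt libraries after sham surgery (-1.45 ± 0.06 for crypts over IEC) and after hepatectomy (-1.26 ± 0.06). Its sign did not turn with library totals in any of these 4 comparisons. Of the summed level per kilobase of Cox7a1 and Cox7a2, its counterpart in most tissues, Cox7a1 made up 19.1 and 21.1% in hepatectomy crypts and 13.5 and 14.5% in sham crypts. It made up 38.2 and 35.3% in hepatectomy IEC and 28.7 and 28.7% in sham IEC. The 6 markers of skeletal and heart muscle summed to 4.14 to 4.31 CPM in hepatectomy crypts and 8.08 to 9.05 CPM in sham crypts. They summed to 9.61 to 9.63 CPM in hepatectomy IEC and 7.98 to 8.45 CPM in sham IEC. In each group the 5 smooth muscle markers summed to at most 1.54 CPM. The part of muscle RNA in the level of Cox7a1 was not tested. Cox6b2, named for testis, was called higher in hepatectomy IEC, with 4.53 and 4.89 CPM in hepatectomy IEC, against 2.84 and 3.26 CPM in sham IEC (log2 fold change 0.63 ± 0.17, edgeR adjusted p = 0.0135). This call was lost without sham IEC replicate 1 or hepatectomy IEC replicate 2 (edgeR adjusted p = 0.079 to 0.102) and with DESeq2 (adjusted p = 0.0708). In crypts Cox6b2 did not pass, with 0.22 ± 0.20. Ndufa4l2, the hypoxia isoform of Ndufa4, was at 0 to 0.115 CPM in the intestine and was not tested there. Cox4i2, Cox6a2 and Cox8b did not exceed 0.307 CPM in any intestinal library, and these 3 with Cox7b2 and Cox8c did not exceed 0.386 CPM in any library labelled liver.

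The promoters of Cox7a1 (chr7:30183921-30184220, plus strand) and Cox7a2 (chr9:79759804-79760103, minus strand), RefSeq on GRCm38.p6, are shown because this pair of counterparts shifted in proportion. Neither window of 300 bases holds any of the 4 motifs searched, so there are no capitals.
Cox7a1: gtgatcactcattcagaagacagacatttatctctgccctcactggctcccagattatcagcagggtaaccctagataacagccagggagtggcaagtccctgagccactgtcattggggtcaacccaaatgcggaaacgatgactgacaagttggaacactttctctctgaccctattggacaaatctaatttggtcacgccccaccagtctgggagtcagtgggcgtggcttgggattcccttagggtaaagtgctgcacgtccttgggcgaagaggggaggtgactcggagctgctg
Cox7a2: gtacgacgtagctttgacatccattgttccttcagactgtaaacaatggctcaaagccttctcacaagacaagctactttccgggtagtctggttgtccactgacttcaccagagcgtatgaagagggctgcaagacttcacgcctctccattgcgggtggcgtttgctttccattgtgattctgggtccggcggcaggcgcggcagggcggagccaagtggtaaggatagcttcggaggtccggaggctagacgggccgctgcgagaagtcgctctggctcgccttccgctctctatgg
The absence of these letters says nothing of the factors.

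**Figure D4:**
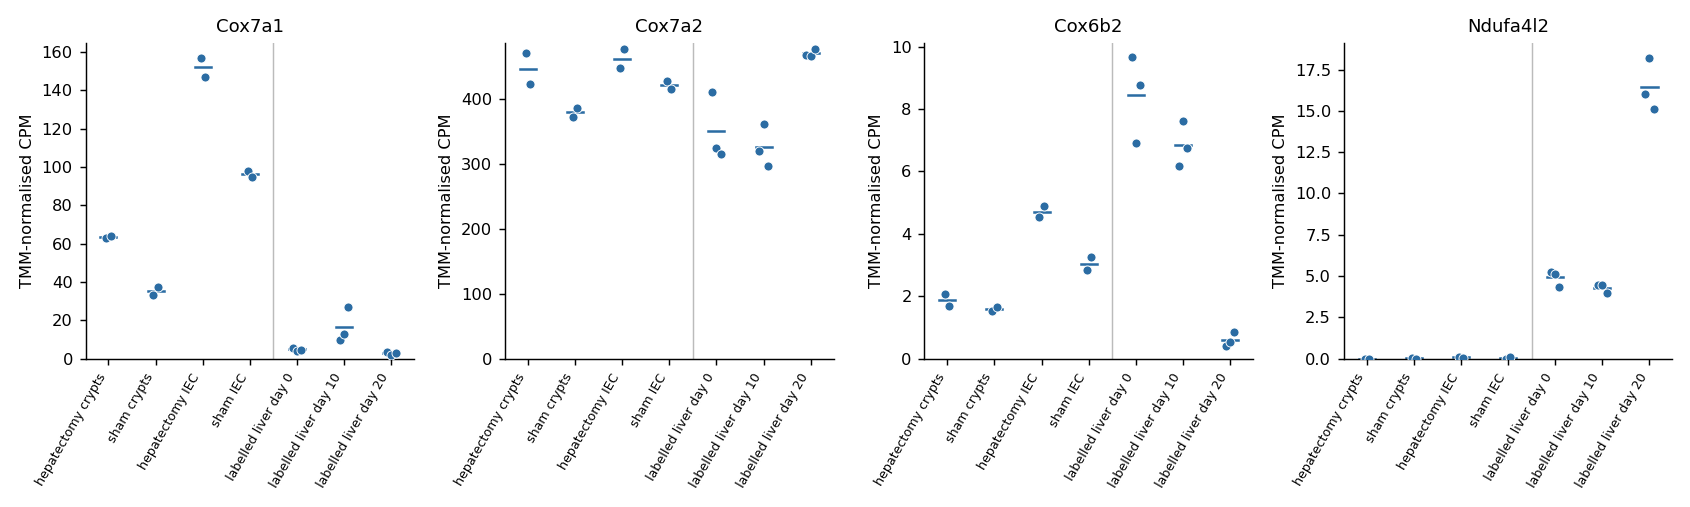
TMM-scaled CPM of Cox7a1, Cox7a2, Cox6b2 and Ndufa4l2 in each library of the 7 groups; points are libraries, and the intestinal libraries and those labelled liver were scaled apart. Among intestinal libraries Cox7a1 is highest in hepatectomy IEC, at 157 and 147 CPM. Among libraries labelled liver Cox6b2 is lowest at day 20, at 0.405, 0.541 and 0.864 CPM, and Ndufa4l2 is highest at day 20, at 16.0, 18.2 and 15.1 CPM.

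Other mitochondrial genes, taken from lists outside the members, were set beside these results. Over all genes tested, 19.2% were called higher and 18.3% lower in crypts after hepatectomy, and 19.5% and 18.3% in IEC. Of 78 ribosomal proteins of the mitochondrion, 34 were called lower in hepatectomy crypts and 36 in hepatectomy IEC. DESeq2 called 18 and 29 of them lower, and library totals 78 and 68. For calls higher in crypts the count was 0 by edgeR, by DESeq2 and at an unadjusted p under 0.05, and in IEC it was 2. Their median log2 fold changes were -0.13 in crypts and -0.15 in IEC, against 0.01 and 0.02 over all genes. Mrpl44, a large-subunit protein, had a log2 fold change of -0.50 ± 0.06 in crypts, with 33.4 ± 0.161 CPM in hepatectomy crypts and 47.2 ± 0.907 CPM in sham crypts (mean ± SD, n = 2 each). Of 14 genes of the tricarboxylic acid cycle, 7 were called higher in crypts, and 7 higher and 3 lower in IEC; library totals called 11 lower in crypts, and 2 higher and 6 lower in IEC. Mdh2, malate dehydrogenase, held 2216 ± 48.7 CPM in hepatectomy IEC and 1488 ± 26.7 CPM in sham IEC (0.57 ± 0.04). Idh2, another enzyme of the cycle, was called lower there (-0.31 ± 0.05). Of the 4 carriers of ADP or protons, 2 were called higher in crypts and 3 in IEC, where library totals called 2 lower in crypts, and 2 higher and 1 lower in IEC. Slc25a5 had 0.38 ± 0.05 in crypts and 0.55 ± 0.05 in IEC. Of 16 genes of ubiquinone synthesis, cytochrome c and electron transfer flavoprotein, 3 were called higher and 2 lower in crypts and 6 higher and 2 lower in IEC, and library totals called 1 higher and 11 lower in crypts and 1 higher and 6 lower in IEC. Etfb, an electron transfer flavoprotein subunit, had 0.52 ± 0.05 in crypts.

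Of 22 regulators of mitochondrial biogenesis and expression, 6 were called higher and 6 lower in hepatectomy crypts, and 3 higher and 9 lower in hepatectomy IEC (3 higher and 15 lower, and 1 higher and 15 lower, with library totals). The shares over all genes tested were 19.2% higher and 18.3% lower in crypts, and 19.5% and 18.3% in IEC. The coactivator Ppargc1a held 30.3 ± 0.923 CPM in hepatectomy crypts and 18.5 ± 0.0556 CPM in sham crypts (0.71 ± 0.07). Mterf2, a protein that binds mitochondrial DNA, had 0.68 ± 0.12 in crypts and 0.89 ± 0.11 in IEC. Tfam, the packaging and transcription factor of mitochondrial DNA, was called lower in IEC, with 34.1 ± 2.26 CPM in hepatectomy IEC and 48.6 ± 1.24 CPM in sham IEC (-0.51 ± 0.06). Nrf1, the factor whose motif was searched above, had -0.38 ± 0.08 in crypts, and Lrpprc, which stabilises mitochondrial mRNA, had -0.27 ± 0.05 in crypts and -0.45 ± 0.05 in IEC. Of 34 assembly factors outside the symbol rule, 5 were called higher and 6 lower in crypts and 7 higher and 8 lower in IEC; library totals called 26 lower in crypts, and 3 higher and 17 lower in IEC.

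In the libraries labelled liver, the nuclear members summed to 36988, 31362 and 31630.2 CPM at day 0, 27059, 24904 and 34733 CPM at day 10 and 21107, 20655 and 20903 CPM at day 20. On this scale of all counts day 20 lay below all other libraries, while day 10 and day 0 overlapped. With TMM scaling the order turned: the sums were 33225, 24726 and 24265 CPM at day 0, 23280.4, 24276 and 21227 CPM at day 10 and 32202, 31639 and 32119.7 CPM at day 20, so that day 20 lay above all day 10 libraries and above day 0 replicates 2 and 3. At day 10 over day 0, 1 of the 90 members tested was called higher and 11 lower, against 24.7% and 18.8% of all genes tested, with a median of -0.20 against 0.10 over all genes. The 11 were 2 core, 2 accessory and 2 assembly members of complex I, 2 members each of complexes II and III and 1 of complex V. Ndufs1, an iron-sulfur core subunit, held 117, 76.0 and 112 CPM at day 10, against 176, 142 and 142 CPM at day 0 (log2 fold change -0.59 ± 0.18, edgeR adjusted p = 0.0191). Uqcrc2, a core protein of complex III, held 292, 224 and 278 CPM at day 10, against 483, 361 and 356 CPM at day 0 (log2 fold change -0.60 ± 0.18, edgeR adjusted p = 0.019). Each day 10 library lay below each day 0 library for both, and both calls were lost without day 10 replicate 2 (edgeR adjusted p = 0.0552 for Ndufs1 and 0.0611 for Uqcrc2). For Ndufaf6 the log2 fold change was -0.83 ± 0.17, and for Atp5a1, the catalytic-head alpha subunit of complex V, -0.56 ± 0.21. The call of Atp5a1 was lost without day 10 replicate 2 or any 1 day 20 library (edgeR adjusted p = 0.0633 to 0.116). This count moved with single libraries: it was 2 without day 10 replicate 2, 21 without day 10 replicate 1, 17 and 20 without day 0 replicates 2 and 3, 5 without any 1 day 20 library, and 11 without day 10 replicate 3. With library totals 1 member was called higher and 1 lower.

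At day 20 over day 0, 35 members were called higher and 6 lower, against 33.3% and 38.1% of all genes tested, with a median of 0.31 against -0.16. Over day 10 the counts were 51 higher and 4 lower, against 30.8% and 40.3%, with medians of 0.50 and -0.21. These are relative positions: with library totals the median of all genes was -1.07 over day 0 and -1.17 over day 10, and 2 members were called higher and 59 lower over day 0, and 2 higher and 47 lower over day 10, with the nuclear median 0.48 and 0.72 above that of all genes. The comparisons share the day 20 libraries.

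The roles differed in their counts. Of the 29 accessory complex I subunits, 19 were called higher at day 20 over day 0 and 26 over day 10, where library totals called 1 higher and 11 lower over day 0, and 1 higher and 7 lower over day 10. Of the 7 core subunits 1 was called higher over day 0, and library totals called 6 lower. Ndufa6 held 262, 182 and 185 CPM at day 0, 198, 212 and 193 CPM at day 10 and 568, 549 and 552 CPM at day 20 (log2 fold change 1.41 ± 0.18, edgeR adjusted p = 9.50e-06). Ndufa1 held 126, 93.7 and 97.2 CPM at day 0, 112, 133 and 98.6 CPM at day 10 and 254, 242 and 249 CPM at day 20 (log2 fold change 1.23 ± 0.17, edgeR adjusted p = 1.85e-05). Day 20 libraries lay above all others for both. Of complex III, 4 of 9 were called higher and 1 lower, and 5 lower with library totals. Uqcrq held 542, 421 and 401 CPM at day 0, 408, 495 and 393 CPM at day 10 and 1139, 1091 and 1114 CPM at day 20 (log2 fold change 1.29 ± 0.19, edgeR adjusted p = 4.28e-05). Cyc1, which carries the heme of cytochrome c1, was the member called lower, with -0.42 ± 0.18, and missed the call without 6 of the 9 libraries left out in turn (edgeR adjusted p = 0.0566 to 0.147). Of complex IV, 4 of 12 were called higher and 1 lower, and 9 lower with library totals. Ndufa4 held 617, 455 and 473 CPM at day 0, 420.3, 493 and 368 CPM at day 10 and 1029, 1045 and 1083 CPM at day 20 (log2 fold change 1.03 ± 0.19, edgeR adjusted p = 0.000355). Cox7a2l held 169.9, 134 and 125 CPM at day 0, 139, 149 and 99.3 CPM at day 10 and 84.8, 88.0 and 85.8 CPM at day 20 (log2 fold change -0.73 ± 0.18, edgeR adjusted p = 0.00236). Day 20 thus lay above the other days for Ndufa4 and below day 0 for Cox7a2l. Of complex V, 3 of 17 were called higher and 1 lower, and 16 lower with library totals, the call shared by both being that of Atp5b, the catalytic beta subunit (log2 fold change -0.61 ± 0.22, edgeR adjusted p = 0.0255). The call of Atp5b was lost without any 1 day 20 library (edgeR adjusted p = 0.0703 to 0.0836). Ndufaf5 fell by 1.16 and Ndufaf1 had 0.90 ± 0.17 on the log2 scale. Without day 0 replicate 2, and without day 0 replicate 3, 20 members were called higher over day 0, and without day 10 replicate 3 the count was 39; 3 were called lower without day 20 replicate 2 or 3.

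**Figure D5:**
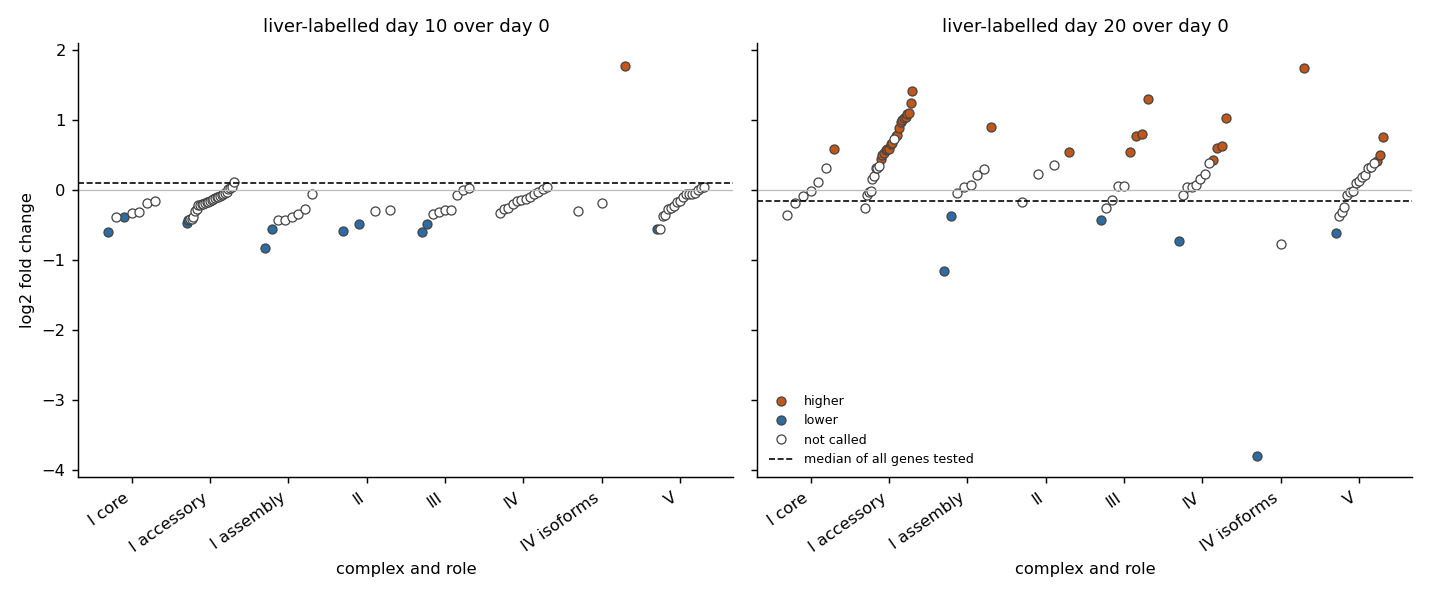
Log2 fold change of each nuclear member in the libraries labelled liver, by role, day 10 over day 0 and day 20 over day 0; colours mark calls and the dashed line is the median of all genes tested. Accessory complex I subunits reach 1.41 for Ndufa6 at day 20, with 19 of 29 called higher; with library totals in place of TMM factors the counts over all members are 2 higher and 59 lower at day 20.

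The 3 isoforms tested in the libraries labelled liver each moved in their own way. Cox7a1 held 5.73, 4.0 and 4.70 CPM at day 0, 9.90, 12.6 and 26.9 CPM at day 10 and 3.46, 2.09 and 2.88 CPM at day 20, and was called higher at day 10 over day 0 (log2 fold change 1.77 ± 0.34, edgeR adjusted p = 0.00348). Its share with Cox7a2 per kilobase was 2.40, 2.12 and 2.56% at day 0, 5.17, 5.79 and 13.8% at day 10 and 1.28, 0.784 and 1.05% at day 20. Day 10 replicate 3, the shallowest library, was the highest of the 9, and it also held 1107 CPM of olfactory receptor genes, against 389 and 444 CPM in the other day 10 libraries; the other 2 day 10 libraries still lay above all day 0 libraries. Skeletal and heart muscle markers summed to 9.10 to 12.6 CPM at day 0, 11.6 to 29.1 CPM at day 10 and 0.633 to 1.36 CPM at day 20, and their part in the level of Cox7a1 was not tested. Cox6b2 held 9.67, 6.92 and 8.76 CPM at day 0, 6.18, 7.62 and 6.75 CPM at day 10 and 0.405, 0.541 and 0.864 CPM at day 20 (log2 fold change -3.79 ± 0.30, edgeR adjusted p = 8.35e-08), with day 20 below all others. Ndufa4l2 held 5.26, 5.13 and 4.34 CPM at day 0, 4.48, 4.44 and 3.95 CPM at day 10 and 16.0, 18.2 and 15.1 CPM at day 20 (log2 fold change 1.74 ± 0.18, edgeR adjusted p = 1.63e-06), with day 20 above all others.

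Outside the members, 48 of 77 mitochondrial ribosomal proteins were called lower at day 10 over day 0, and 24 with library totals. Over all genes tested 24.7% were called higher and 18.8% lower at day 10. At day 20 over day 0, 5 of the 77 were called higher and 31 lower, against 33.3% and 38.1% of all genes tested. Library totals called 72 of the 77 lower. Of 14 genes of the tricarboxylic acid cycle, 9 were called lower at day 10 by edgeR and 11 by DESeq2, where edgeR with library totals called 0; Cs, citrate synthase, had -0.67 ± 0.16. Of the 4 carriers of ADP or protons, each was called lower at day 20: Slc25a4 had -2.17 ± 0.19 and Ucp2, a carrier known from immune and epithelial cells, -4.07 ± 0.20. At day 20 over day 0 the cycle genes had 3 called higher and 5 lower (0 and 11 with library totals). Of 16 genes of ubiquinone synthesis, cytochrome c and electron transfer flavoprotein, 8 were called higher and 5 lower (5 and 8 with library totals). Coq8a held 125 ± 24.1 CPM at day 0 and 880 ± 17.7 CPM at day 20 (mean ± SD, n = 3 each). Of 34 assembly factors outside the symbol rule, 12 were called higher and 8 lower (0 and 20 with library totals). Of 22 regulators, 1 was called higher and 9 lower at day 20, against the same 33.3% and 38.1% of all genes tested. Library totals called 17 of the 22 lower. Pprc1 had -1.98 ± 0.18, Tfam -1.11 ± 0.18 and Esrrg -2.39 ± 0.28.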

How the data were processed

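Total RNA (1 ug, RNeasy mini plus kit) was made into standard Illumina libraries, per the labels. STAR, Partek and the build mm10 are named in the submitters' processing notes, without versions. The authors deposited expected counts per gene symbol for the intestine, of which 36.7% are not whole and which were rounded (values of 1e+06 or more hold 3 digits), and whole-number counts per numeric gene identifier for the libraries labelled liver, of which 24570 of 24594 identifiers were matched to symbols and 24, holding 3.93 to 22.1% of counts, stayed unnamed. Each tissue was fitted on its own with all its groups in edgeR 4.0.16 (quasi-likelihood, TMM, filterByExpr with a minimum count of 10 and total of 15; R 4.3.3, limma 3.58.1), with Benjamini-Hochberg adjustment over all genes tested and calls at adjusted p under 0.05. DESeq2 1.42.0, size factors, filters, a replicate block, a fold threshold and leaving out libraries were alternatives. The script was tested on simulated data. There, 49.3% of 1.5-fold changes were called for hepatectomy over sham in crypts and 4.48% for day 10 over day 0. For 2-fold changes the shares were 73.1% and 53.7%. A member not called can therefore still have changed. Figures used Python 3.11.15 and matplotlib 3.10.9, and copies were aligned with BLAST 2.17.0. No deposited pair of replicates was a duplicate within counting noise. Of the members, 43 overlap exons of another gene and 30 have a copy of at least 95% identity over 200 bases, so their counts are uncertain.

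The pool for naming held the 13 mitochondrial members, complex IV isoforms and members called with opposite signs. It also held, in each comparison and role, the 2 largest called rises and falls and the most abundant member. Of the other lists it held the 2 largest rises and falls and all regulators. Only part of this pool is printed above, so a gene not printed may also have been called. The members and lists were chosen with earlier results of these data known. Ndufa4 and Ndufa4l2 were placed in complex IV, and 4 gene copies set apart, after the data were seen.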

Additional observations from a re-analysis of the deposited data

Results flagged for a closer look

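The change with hepatectomy differed between crypts and IEC for 24 members by the interaction term of the edgeR model (adjusted p under 0.05), where 9.15% of all genes tested were called higher and 10.1% lower. Values are the log2 fold change of hepatectomy over sham in crypts minus that in IEC. For the mitochondrial complex I subunits the differences were 1.37 for mt-Nd1, 1.69 for mt-Nd2, 0.95 for mt-Nd3, 1.72 for mt-Nd4, 1.72 for mt-Nd4l, 1.89 for mt-Nd5 and 1.86 for mt-Nd6. The complex III subunit mt-Cytb had a difference of 1.47. The complex IV subunits had 1.11 for mt-Co1, 1.11 for mt-Co2 and 0.94 for mt-Co3, and the complex V subunits 0.97 for mt-Atp6 and 1.17 for mt-Atp8. Each of these 13 members was higher in both hepatectomy crypt libraries than in both sham crypt libraries.

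Of the 92 nuclear members 7 were called upwards and 4 downwards. With library totals in place of TMM factors none of the 7 was called, the counts being 0 and 6, and with the replicate number in the model they were 3 and 3. Among nuclear members the change was more positive in crypts by 0.26 for Ndufa3 and 0.29 for Ndufc2 in complex I, by 0.24 for Cox6c and 0.27 for Ndufa4 in complex IV, by 0.29 for Atp5g1 and 0.26 for Atp5j in complex V, and by 0.46 for Ndufs6b, a near-identical copy of the complex I gene Ndufs6 whose reads cannot be told apart with certainty. It was more negative in crypts by -0.26 for Ndufa6, -0.24 for Ndufa7, -0.24 for Ndufb4 and -0.20 for Ndufb9, all of them accessory complex I subunits. No test of single samples was run, because no group holds 4 or more libraries.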

How the results depend on the processing

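Counts are given as nuclear members called higher or lower. With a log2 fold change of at least 0.5 required, hepatectomy over sham gave 1 higher and 0 lower in crypts, and 3 higher and 2 lower in IEC (mitochondrial 0 higher, 0 lower). The difference between compartments gave 0 higher and 0 lower, and crypts over IEC gave 0 higher and 4 lower after sham surgery and 3 higher and 4 lower after hepatectomy (mitochondrial 0 higher). Day 10 over day 0 gave 6 lower. With library totals in place of TMM factors, a setting added after the data were seen, the counts were 1 higher and 57 lower in crypts, 4 higher and 41 lower in IEC (mitochondrial 0 higher, 9 lower), 0 higher for the difference. They were 72 higher and 4 lower for sham crypts over IEC, 53 higher and 4 lower for hepatectomy crypts over IEC (mitochondrial 5 higher). They were 1 lower at day 10, 2 higher and 59 lower for day 20 over day 0, and 2 higher and 47 lower for day 20 over day 10. With library totals 15.9% of all calls in crypts were higher, against 51.2% with TMM, 25.7% against 51.5% in IEC, 29.5% against 47.6% for the difference, 83.2% against 50.1% and 70.3% against 50.6% for crypts over IEC after sham surgery and hepatectomy, and 25.6% against 46.7% and 19.1% against 43.4% for day 20 over day 0 and day 10. Without a filter on low counts there were 4 lower in hepatectomy crypts, 13 lower in hepatectomy IEC (mitochondrial 7 lower), 11 higher and 2 lower for the difference, 6 higher and 24 lower in sham crypts over IEC, 20 lower at day 10 and 23 higher at day 20 over day 0. A stricter filter gave 3 mitochondrial members higher and 2 lower in hepatectomy IEC, 3 nuclear higher and 10 lower for the difference, 0 mitochondrial higher for hepatectomy crypts over IEC, 2 lower at day 10, and 53 higher and 3 lower at day 20 over day 0. Without mitochondrial genes and Gm10800 there were 0 lower in crypts and 13 higher and 1 lower for the difference. DESeq2 gave 0 lower in crypts, 2 lower for the difference and 1 mitochondrial member higher for hepatectomy crypts over IEC; its own size factors in edgeR gave 0 lower in crypts. Fitting only the groups compared gave 0 lower in crypts, 0 mitochondrial higher for hepatectomy crypts over IEC and 15 lower at day 20 over day 0. The mitochondrial counts in hepatectomy crypts, for the difference and in sham crypts over IEC were 13 under every alternative that kept the mitochondrial genes. Adding the nuclear copies, also chosen after the data were seen, changed no mitochondrial count, though mt-Co1 replaced mt-Atp6 in IEC.

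Leaving out each library in turn gave 32 to 48 higher and 0 to 1 lower in crypts, 24 to 34 higher and 4 to 12 lower in IEC (mitochondrial 0 to 1 higher and 2 to 6 lower), 2 to 9 higher and 0 to 2 lower for the difference. It gave 1 to 3 higher and 23 to 41 lower in sham crypts over IEC, 9 to 13 higher and 28 to 34 lower in hepatectomy crypts over IEC (mitochondrial 0 to 2 higher and 6 to 6 lower). It gave 1 to 1 higher and 2 to 21 lower at day 10, 20 to 47 higher and 3 to 9 lower at day 20 over day 0, and 44 to 65 higher and 2 to 6 lower at day 20 over day 10. The mitochondrial counts in crypts, for the difference and in sham crypts over IEC were 13 to 13. In IEC 12 nuclear members were lower without sham crypts replicate 1. On the scale of nuclear counts only, the mean nuclear sum was 35011 CPM in hepatectomy crypts, 31536 CPM in hepatectomy IEC and 34700.0 CPM in sham IEC, and the mean mitochondrial sum was 57491 CPM in hepatectomy IEC, 67736 CPM in sham IEC and 26562 CPM in sham crypts; without assembly factors the nuclear sum in hepatectomy IEC was 28754 CPM. On the same scale of nuclear counts, the nuclear sum was 39284 and 37039 CPM in the sham crypt libraries. The mitochondrial sum was 56487 and 49485 CPM in the hepatectomy crypt libraries. The cause of these shifts was not tested.

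The labels do not say whether replicate numbers pair these samples. Same-numbered libraries correlated at -0.028 to 0.11 in the intestine and -0.066 to 0.048 in the libraries labelled liver. With 2 libraries per intestinal group, each pair of groups gives a single value and its negative, so the intestinal values cannot decide the pairing. With the replicate number as a block there were 47 higher and 1 lower in crypts, 35 higher and 6 lower in IEC, 3 higher and 3 lower for the difference. There were 3 higher and 35 lower for sham crypts over IEC, 11 higher and 34 lower for hepatectomy crypts over IEC, 1 higher and 8 lower at day 10, 35 higher and 6 lower at day 20 over day 0, and 51 higher and 4 lower at day 20 over day 10. Isoforms at or near 0 CPM did not pass the count filter and were not tested; low expression and limited depth cannot be told apart for them.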

Other observations

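Set between crypts and IEC with TMM factors, calls of mitochondrial ribosomal proteins were mostly higher in crypts, while of the 92 nuclear members 3 were called higher and 38 lower after sham surgery and 12 higher and 34 lower after hepatectomy; library totals called most of both lists higher. Of 78 mitochondrial ribosomal proteins, 48 were called higher in sham crypts than in sham IEC. After hepatectomy 51 were called higher and 4 lower in crypts than in IEC. Library totals called 78 and 71 higher, and DESeq2 36 and 45. Over all genes tested 19.3% were called higher and 19.3% lower in crypts after sham surgery, and 26.3% and 25.6% after hepatectomy. Of 22 regulators of mitochondrial biogenesis, 7 were called higher and 4 lower in sham crypts and 11 higher and 4 lower in hepatectomy crypts, with 17 higher and 2 lower, and 18 higher and 2 lower, under library totals. Of 14 genes of the tricarboxylic acid cycle, 2 were called higher and 7 lower in sham crypts and 5 higher and 7 lower in hepatectomy crypts, where library totals called 8 higher and 1 lower, and 7 higher and 5 lower. Of 34 assembly factors outside the symbol rule, 6 were called higher and 4 lower in sham crypts and 9 higher and 12 lower in hepatectomy crypts, where library totals called 26 higher and 1 lower, and 18 higher and 3 lower. These comparisons lie within a running-number series, and the 2 series share no library.

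mt-Co1 made up 26.0 to 30.8% of the summed level of the 13 mitochondrial mRNAs over the 8 intestinal libraries, mt-Cytb 14.5 to 18.6% and mt-Nd1 11.2 to 13.9%. Counts of the nuclear copies were left out of these shares and of the ratios below. The ratio of the 13 mRNAs to mitochondrial ribosomal RNA was 1.68 and 1.69 in hepatectomy crypts and 1.61 and 1.47 in sham crypts. In IEC it was 1.94 and 1.58 after hepatectomy and 1.54 and 1.54 after sham surgery.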
